A study of Mus musculus with 32 samples.

Results

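The genes described here build, sense and move sterols in cells of the mouse intestinal crypt. They are a list of 32 symbols: 8 genes of the mevalonate steps and the isoprenoid branch, 12 that carry squalene to cholesterol, 4 that sense sterols and 8 that transport or esterify them. Each symbol matched 1 of the 50686 genes in the deposited tables, and all 32 passed the filter on low counts in every model. PolyA RNA was sequenced from 2 populations of crypt cells sorted by the green fluorescence of an Lgr5 reporter: intestinal stem cells (eGFP high) and their progenitors (eGFP low). Both gates also took cells that were positive for EpCAM, low or negative for CD24, and negative for CD31, Ter119, CD45 and the dye 7AAD.

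All mice were C57BL6 and carried Villin-CreER, a recombinase under an intestinal epithelial promoter that tamoxifen activates, and Lgr5-GFP-IRES-CreER, which both marks stem cells and drives a further copy of the recombinase. Wild-type mice carried these 2 drivers alone, and Cpt1a-deficient mice also carried floxed Cpt1a (Cpt1a fl/fl). Cpt1a encodes the carnitine transferase by which long-chain fatty acids enter mitochondria to be oxidised. The mice ate a high-fat diet or the high fat control diet. No label gives the age of the mice, the time on the diet or the time after recombination. The 8 groups of population, genotype and diet held 4 libraries each, with 2 labelled female and 2 labelled male. The columns of the tables name the group but no replicate. Libraries are called a to d within a group in the order of the serial numbers of their columns, so a letter marks the same run of 8 consecutive numbers, 1 column of each group, throughout. The stem cell and progenitor columns of a genotype and diet that share a letter have consecutive numbers. No label says which libraries came from 1 mouse, so p-values measure the spread between these libraries.

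Each library held between 3307711 and 7337425 estimated counts (median 5655066.5). Levels are given as CPM, read counts per 1000000 after TMM scaling of all 32 libraries together, or as TPM, transcripts per 1000000 with transcript length taken into account, where genes are compared with each other. Cpt1a lay between 119 and 240.2 CPM in wild-type stem cells and between 18.8 and 25.9 CPM in deficient ones. Wild-type progenitors held 169.6 to 347 CPM of it, and deficient progenitors 19.0 to 30.6. The summed level of 8 stem cell markers was 12869 to 16819 CPM in stem cells and 2594 to 6267 CPM in progenitors. Ptprc (CD45) and Pecam1 (CD31), genes of the cells gated out, had no library above 0.613 and 0.977 CPM. Wider lists of such cells were not all near 0. The sum of 6 white blood cell markers was 6.20 to 14.5 CPM in stem cells and 10.8 to 35.3 CPM in progenitors, with Itgam up to 34.3 CPM. That of 6 endothelium and stroma markers was 0 to 1.02 CPM and 2.24 to 7.93 CPM, with Vim up to 7.74 CPM.

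Cholesterol is made from acetyl-CoA through mevalonate, isoprenoid diphosphates, squalene and lanosterol. Low sterol in the endoplasmic reticulum lets Scap escort the transcription factor precursor Srebf2 to the Golgi, where it is cut and freed to switch on synthesis genes, while Insig1 and Insig2 hold the complex back when sterol is plentiful. The small intestine both makes cholesterol and takes it up from food, stores it as esters and returns part of it to the lumen.

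Stem cells were compared with progenitors across all genotypes and diets to show how sterol genes differ between the 2 sorted populations. Stem cells held less mRNA for most of the pathway: 23 of the 32 genes were lower, 3 were higher and 6 did not pass (edgeR's quasi-likelihood test with Benjamini-Hochberg adjustment over 13088 genes at 0.05, 16 and 16 libraries). The members that passed made up 26 of 32, against 63.5% of all genes tested, which were split into 32.5% higher and 31.0% lower. The median log2 fold change of the 32 genes was -0.66, and that of all genes 0.02. The 3 genes that were higher in stem cells all belong to transport and esterification. In the heat map of the 32 libraries the synthesis genes form a block that is low on the stem cell side and high on the progenitor side.

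**Figure D1:**
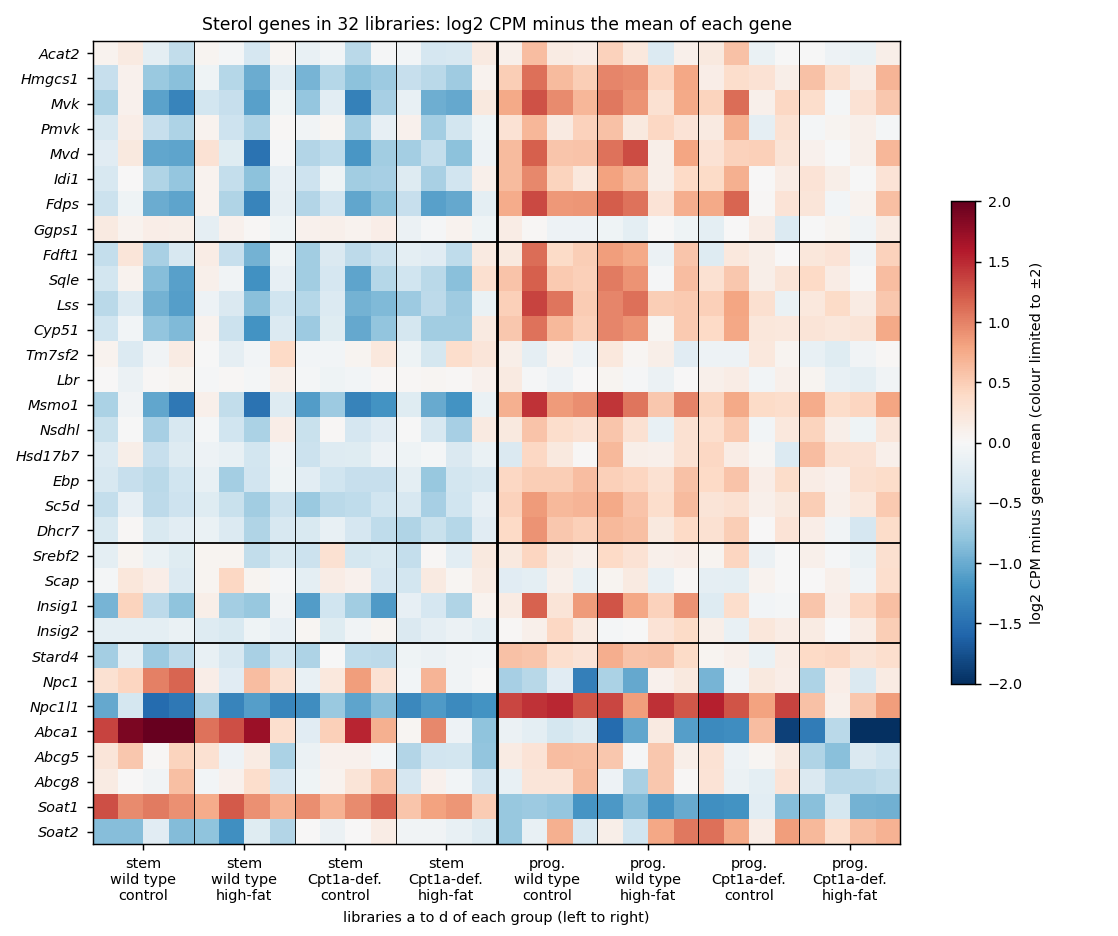
Log2 CPM of the 32 sterol genes (rows, in 4 role groups) in the 32 libraries (columns, 4 per group), minus the mean of each gene over all libraries. Red is above and blue below that mean. Most synthesis genes are blue in stem cells and red in progenitors, and Soat1 and Abca1 show the opposite.

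Of the 8 genes of the mevalonate steps and isoprenoid branch, 7 were lower in stem cells and Ggps1 did not pass, with a median log2 fold change of -0.89. For 2 of the 7 this holds only on the count scale: limma on log2 TPM put Acat2 at 0.04 (adjusted p = 0.701) and Pmvk at -0.18 (adjusted p = 0.0872). On that scale the median of all genes was 0.27. Idi1 passed there with a smaller difference (-0.46). Fdps, which makes farnesyl diphosphate at the branch between sterols and other isoprenoids, had 45.4, 74.9 and 119 CPM as its lowest, median and highest stem cell library and 109, 187 and 282 CPM in progenitors. Only the highest stem cell libraries reached the lowest progenitor libraries, and 15 of 16 stem cell libraries lay below all progenitor libraries. The log2 fold change of Fdps was -1.26 ± 0.14 (SE, n = 16 and 16, adjusted p = 2.49e-08 by edgeR). Fdps shares 26.7% of its exonic bases with the overlapping gene Gm43738, and how the counting divided such reads is not given in the sources used here.

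Mvk, the kinase that phosphorylates mevalonate, had 6.57, 10.8 and 19.2 CPM as its lowest, median and highest stem cell library. In progenitors these values were 16.4, 25.6 and 40.8 CPM. The ranges overlapped at their edges, with 14 of 16 stem cell libraries below every progenitor library, and the log2 fold change was -1.18 ± 0.14 (SE, adjusted p = 3.61e-08 by edgeR). Hmgcs1, which makes the substrate of the step that forms mevalonate, did not overlap: 78.7 to 166 CPM in stem cells and 169.8 to 335 CPM in progenitors, a log2 fold change of -1.04 ± 0.10. Mvd, which decarboxylates the phosphorylated product to isopentenyl diphosphate, differed by -1.03 ± 0.14 and Idi1, its isomerase, by -0.76 ± 0.10. The smallest called differences in this branch were those of Pmvk, the next kinase (-0.50 ± 0.10), and Acat2, the thiolase that joins acetyl-CoA units (-0.26 ± 0.08). Acat2 has a close relative in the mouse, Acat3, so its reads may be divided. Ggps1, which makes geranylgeranyl diphosphate for protein prenylation and lies off the sterol route, had 48.0 ± 3.44 CPM (SD, n = 16) in stem cells and 45.7 ± 4.01 CPM in progenitors.

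Of the 12 genes from squalene to cholesterol, 10 were lower in stem cells and 2 did not pass, with a median of -0.72. Hsd17b7 did not pass under limma on log2 TPM (-0.15, adjusted p = 0.150), and Fdft1 (-0.35), Lss (-0.72), Nsdhl (-0.22) and Ebp (-0.46) passed there with differences over 1.5 times smaller. Msmo1, the oxidase that starts removal of the methyl groups at carbon 4 of lanosterol-derived sterols, had the largest difference of all synthesis genes. Its lowest, median and highest libraries were 35.0, 53.9 and 105 CPM in stem cells and 125, 164 and 266 CPM in progenitors. No stem cell library reached any progenitor library. The log2 fold change was -1.48 ± 0.14 (SE, adjusted p = 1.36e-09 by edgeR), which is 2.78-fold less. Sc5d, the desaturase near the end of the route, and Ebp, the isomerase before it, also had no overlap between the populations. Sc5d ran from 58.9 to 87.4 CPM in stem cells and from 105 to 178 CPM in progenitors (-0.89 ± 0.06). Ebp ran from 55.4 to 88.1 CPM and from 98.7 to 143 CPM (-0.77 ± 0.06).

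The other called genes of this stretch ranged from -1.15 to -0.40 on the log2 scale. They were Lss (-1.15 ± 0.11), which closes the rings to lanosterol, and Cyp51 (-1.02 ± 0.13), which removes a methyl group from lanosterol. Sqle (-0.93 ± 0.14) adds oxygen to squalene, and Fdft1 (-0.65 ± 0.11) makes squalene. Dhcr7, the last reductase (-0.67 ± 0.07), Nsdhl (-0.51 ± 0.09) and Hsd17b7 (-0.40 ± 0.08), which finish the demethylation that Msmo1 begins, completed the set. Fdft1 shares 18.3% of its exonic bases with Ctsb on the opposite strand, and the strand setting of the counting is not given in the sources used here. The 2 genes that did not pass were Tm7sf2 and Lbr, which both encode a sterol reductase of the same step. Lbr, also a receptor of the inner nuclear membrane for lamin B, had 383 ± 15.5 CPM (SD, n = 16) in stem cells and 382 ± 27.8 CPM in progenitors. Tm7sf2 had 14.7 ± 2.15 CPM and 14.2 ± 1.44 CPM. For each of them the populations overlapped over nearly their whole ranges.

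Promoter sequence was looked at because most synthesis genes differed in the same direction. RefSeq promoter windows (GRCm38.p6, 250 bases before to 50 after the annotated start) were used for 26 of the 32 genes. The synthesis genes Fdps, Fdft1 and Sqle and the transport and esterification genes Stard4, Npc1 and Soat2 were not covered. The core of the sterol regulatory element, searched as TCACNCCAC on both strands, was in a window of 1 of these 26, Hmgcs1, and of 1.44% of all 27025 genes with windows (some genes have several). CCAAT, the letters bound by the factor NF-Y, searched on both strands (ATTGG on the printed one where reversed), was in a window of 23 of 26 genes and 16 of 17 synthesis genes, against 41.1% of all genes with windows. In the windows shown the 2 motifs do not overlap. Such matches describe letters only, not bound sites, and no variant of either string was searched. The windows of 4 genes are shown, with matches in capitals: Hmgcs1, the only one with the sterol core; Msmo1, the synthesis gene with the largest difference; Soat1, which differed in the opposite direction; and Abcg5, which was called for genotype.
Hmgcs1, chr13:119690101-119690400, plus strand: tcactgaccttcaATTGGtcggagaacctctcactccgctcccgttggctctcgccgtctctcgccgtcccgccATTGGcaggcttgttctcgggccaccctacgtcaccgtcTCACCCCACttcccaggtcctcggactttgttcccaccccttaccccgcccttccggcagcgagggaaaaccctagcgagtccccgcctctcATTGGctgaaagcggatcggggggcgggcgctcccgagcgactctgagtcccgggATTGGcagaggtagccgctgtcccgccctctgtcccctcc
Msmo1, chr8:64733529-64733828, minus strand: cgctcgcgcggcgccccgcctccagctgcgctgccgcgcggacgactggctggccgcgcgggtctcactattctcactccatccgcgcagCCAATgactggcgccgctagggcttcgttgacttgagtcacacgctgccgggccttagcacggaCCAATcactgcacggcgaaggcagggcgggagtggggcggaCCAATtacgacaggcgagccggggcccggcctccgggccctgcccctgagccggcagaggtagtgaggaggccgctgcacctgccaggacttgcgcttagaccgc
Soat1, chr1:156474279-156474578, minus strand: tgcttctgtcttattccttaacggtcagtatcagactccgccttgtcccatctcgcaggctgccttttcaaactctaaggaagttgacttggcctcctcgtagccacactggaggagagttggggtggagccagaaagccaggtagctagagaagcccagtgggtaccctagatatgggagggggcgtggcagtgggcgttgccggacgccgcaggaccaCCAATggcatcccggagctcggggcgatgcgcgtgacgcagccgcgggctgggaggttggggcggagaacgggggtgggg
Abcg5, chr17:84682962-84683261, minus strand: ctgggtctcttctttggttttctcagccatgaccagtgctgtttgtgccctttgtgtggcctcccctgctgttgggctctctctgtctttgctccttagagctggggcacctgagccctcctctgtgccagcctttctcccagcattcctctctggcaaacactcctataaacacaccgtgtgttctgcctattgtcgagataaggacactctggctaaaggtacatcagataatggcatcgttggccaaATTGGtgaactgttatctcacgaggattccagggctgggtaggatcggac
The Hmgcs1 window holds 4 CCAAT letters beside its sterol core and the Msmo1 window 3. The windows of Soat1 and Abcg5 hold 1 each. These 4 windows do not stand for the rest. Among other genes lower in stem cells the number ran from 0 in Acat2 to 5 in Mvk. Cyp51, Lss, Sc5d and Insig1, also lower, had 1 each. Ggps1 and Lbr, which did not pass, had 3 and 2. Abcg5 and Abcg8 lie head to head, and their windows share 209 bases. The CCAAT of the Abcg5 window lies in this stretch and is counted for both genes.

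Among the 4 sensing genes, 3 were lower in stem cells and Scap did not pass, with a median of -0.31. The sign of Insig2 reversed under limma on log2 TPM (0.01, adjusted p = 0.939), where the median of all genes was 0.27. Insig1, which is itself a target of the pathway, differed most (-0.92 ± 0.14), with 25.9, 38.5 and 77.5 CPM as the lowest, median and highest stem cell library. Its progenitor libraries ran from 47.6 over 77.2 to 136 CPM, so the populations overlapped, with 11 of 16 stem cell libraries below all progenitors. Insig2 (-0.32 ± 0.05) and Srebf2 (-0.30 ± 0.08), the transcription factor gene, differed by less. Under limma on log2 TPM Srebf2 was at -0.02 (adjusted p = 0.875) and Insig1 at -0.61. Scap had 57.6 ± 8.35 CPM (SD, n = 16) in stem cells and 55.9 ± 6.29 CPM in progenitors.

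**Figure D2:**
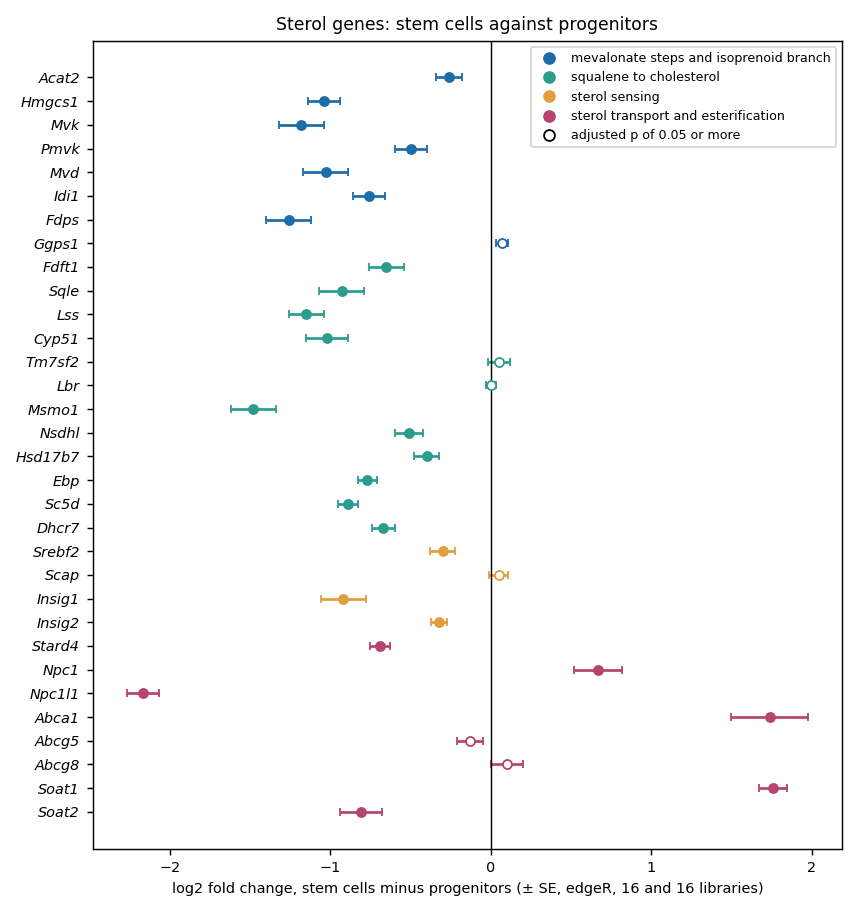
Log2 fold change of stem cells minus progenitors (edgeR, 16 and 16 libraries) for each sterol gene, with its standard error as the bar and the role group as the colour. Open points did not pass. Of the filled points, 23 lie left of 0 and 3 (Npc1, Abca1, Soat1) right of it. Acat2 and Insig2 change sign when limma is run on log2 TPM, where the median of all genes is 0.27 and not 0.02.

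The 8 transport and esterification genes divided: 3 were higher in stem cells, 3 were lower and 2 did not pass. Soat1, the enzyme that makes cholesterol esters in most tissues, had 461, 609 and 793 CPM as its lowest, median and highest stem cell library. In progenitors these were 138, 172 and 281 CPM. Every stem cell library was above every progenitor library, and the log2 fold change was 1.76 ± 0.09 (SE, n = 16 and 16, adjusted p = 4.11e-16 by edgeR), or 3.40-fold more. Soat2, the esterifying enzyme of enterocytes and hepatocytes, went the other way (-0.81 ± 0.13). It had 8.73 to 22.5 CPM in stem cells and 12.0 to 43.8 CPM in progenitors, which overlapped, and stood at -0.44 under limma on log2 TPM.

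Npc1l1, the apical transporter through which enterocytes absorb cholesterol, had the largest difference of the 32 genes. Its lowest, median and highest libraries were 12.3, 15.9 and 28.0 CPM in stem cells and 38.4, 85.1 and 105 CPM in progenitors. The populations did not overlap, and the log2 fold change was -2.17 ± 0.10 (SE, adjusted p = 4.26e-17 by edgeR), or 4.49-fold less in stem cells. Abca1, which exports cholesterol to apolipoprotein A-I, was higher in stem cells at low levels, with 1.43, 5.06 and 13.1 CPM against 0.428, 1.20 and 3.83 CPM. The ranges overlapped, 15 of 16 stem cell libraries lay above the progenitor mean, and the log2 fold change was 1.74 ± 0.24 (adjusted p = 1.52e-07 by edgeR). On log2 TPM, where a pseudocount of 1 compresses such low values, limma put it at 0.60. Progenitor libraries held only 2 to 22 counts of Abca1 each.

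Npc1, which lets cholesterol out of lysosomes, was also low and higher in stem cells: 4.56, 6.56 and 11.9 CPM against 2.08, 4.47 and 6.10 CPM, a log2 fold change of 0.67 ± 0.15 (SE, adjusted p = 0.000247 by edgeR). All 16 stem cell libraries lay above the progenitor mean, and the ranges overlapped. Stard4, a soluble carrier that moves cholesterol between membranes, was lower in stem cells (-0.69 ± 0.06), at 40.9 to 66.7 CPM against 61.7 to 112 CPM. Abcg5 and Abcg8, which together form the pump that returns sterols to the lumen, did not pass. Abcg5 had 52.7 ± 13.6 CPM (SD, n = 16) in stem cells and 58.4 ± 16.1 CPM in progenitors, and Abcg8 38.0 ± 7.94 and 35.8 ± 9.90 CPM.

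**Figure D3:**
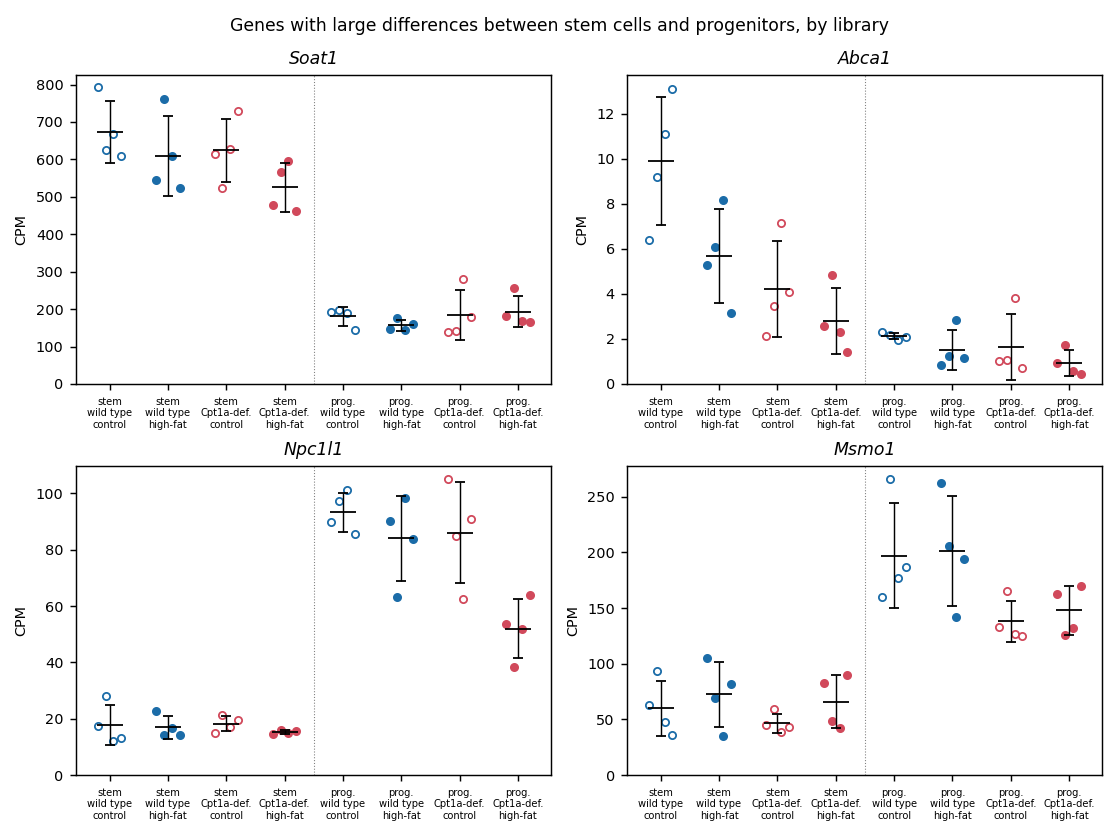
CPM of Soat1, Abca1, Npc1l1 and Msmo1 in every library of the 8 groups (points, open for the control diet and filled for the high-fat diet, blue for wild type and red for Cpt1a-deficient), with the group mean and SD as bars. Soat1 lies at or above 461 CPM in every stem cell library and at or below 281 CPM in every progenitor library, while Npc1l1 and Msmo1 show the reverse order. Abca1 overlaps.

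The 16 stem cell and 16 progenitor libraries did not overlap for 6 of the 32 genes, 5 of them lower in stem cells, against 10.2% of all genes. Within each of the 4 conditions of genotype and diet, where 4 libraries meet 4, 8 of the 32 genes were apart in the same direction every time, 7 of them lower in stem cells, against 15.5% of all genes. The number that overlapped in every condition was 7 of 32, against 44.2%. The direction of each called gene held in 4 of 4 runs of consecutive column numbers, each of which holds 1 library of every group. Leaving out any 1 of the 32 libraries kept all 26 calls, and so did a fit with each stem cell column and the progenitor column of the next number as a pair. On log2 TPM limma also called 26 of the genes, but 8 higher and 18 lower, with a median of -0.39. It called 21 of the 26 that edgeR called, without Acat2, Pmvk, Hsd17b7, Srebf2 and Insig2. There the median of all genes stood at 0.27, a shift of 0.24, and 79.4% of the called genes were higher against 51.2% in edgeR (7617 higher and 1981 lower against 4259 and 4056). The genes that became called as higher on that scale were Ggps1, Tm7sf2, Lbr, Scap and Abcg8.

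The populations also differed in markers of mature cells, whose part in the sterol differences was not tested. The summed level of 18 enterocyte markers was 2194 to 3699 CPM in stem cells and 3767 to 9923 CPM in progenitors. That of 10 goblet cell markers was 269 to 922 CPM and 9676 to 27183 CPM, and that of 8 Paneth cell markers 220.1 to 2764 CPM and 4015 to 26511 CPM. None of these markers was at 0 in all libraries of a population. The 12 cell cycle genes overlapped, with 2449 to 3511 CPM and 2141 to 3149 CPM. In bulk libraries such as these, fewer cells that express a gene and less RNA per cell cannot be told apart.

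Per transcript length the order of the genes also differed between the populations. In stem cells Soat1 stood highest with 309.8 ± 59.1 TPM (SD, n = 16), followed by Lbr with 188 ± 11.3 TPM. Ebp (125 ± 12.5 TPM) and Acat2 (122 ± 18.9 TPM) came next and differed from each other by less than their spread. In progenitors Fdps stood first with 206 ± 59.5 TPM, and Ebp (173 ± 23.4), Msmo1 (157 ± 41.0) and Lbr (153 ± 12.7 TPM) followed, each within the spread of its neighbour. Soat1 held rank 11 there, with 77.4 ± 18.9 TPM. Npc1 and Abca1 were the lowest in both, at 2.59 ± 1.02 and 0.971 ± 0.587 TPM in stem cells and 1.65 ± 1.09 and 0.255 ± 0.165 TPM in progenitors.

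Loss of Cpt1a was compared with wild type within each population and diet, to show how sterol genes behave in cells with much less Cpt1a mRNA. Entry of fatty acids into mitochondria was not measured in these data. In progenitors most sterol genes were at lower levels in deficient cells, but only 3 passed the test with diets averaged: Abcg5, Stard4 and Sc5d, all lower. That is 3 of 32, against 1.21% of 12460 genes called in either direction and 0.361% called lower. The fold changes of 26 of the 32 genes were negative, with a median of -0.30, while the median of all genes was 0.01. At an unadjusted p under 0.05 the count was 17 of 32, all with negative fold changes, against 11.2% of all genes. Synthesis genes varied together between libraries of a group, as described further on. This count and similar counts below therefore do not come from independent genes. DESeq2 called 6 genes, adding Hmgcs1 (-0.41, adjusted p = 0.0135), Msmo1 (-0.48, adjusted p = 0.0180) and Insig1 (-0.55, adjusted p = 0.0262). limma on log2 TPM called 2, Abcg5 and Ebp. Over all genes DESeq2 called 263 and limma 122, against 151 by edgeR.

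Abcg5 carried the largest called change with genotype. Its wild-type progenitor libraries a to d held 60.0, 64.6, 82.3 and 81.2 CPM under the control diet and 77.7, 52.7, 77.8 and 57.9 CPM under the high-fat diet. The deficient libraries held 65.1, 50.1, 54.7 and 60.6 CPM under the control diet and 35.4, 30.1, 43.8 and 40.7 CPM under the high-fat diet. The deficient libraries on the high-fat diet lay below all 12 others, and the genotypes overlapped on the control diet. Averaged over diets the log2 fold change was -0.56 ± 0.11 (SE, n = 8 and 8, adjusted p = 0.00786 by edgeR), with 8 of 8 deficient libraries below the wild-type mean.

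On the high-fat diet alone Abcg5 fell by 1.77-fold (log2 fold change -0.82 ± 0.15, n = 4 and 4, adjusted p = 0.0122 by edgeR), and it was the only member called there, against 0.706% of all genes in either direction and 0.233% lower. With no adjustment, p was under 0.05 for 14 of 32, against 10.6% of all genes. The averaged call held without any 1 of the 16 progenitor libraries and in every other setting run. The call on the high-fat diet was lost in 4 of 8 such fits, without wild-type library a or c or deficient library a or b, with an adjusted p of up to 0.0669. It was also lost under limma on log2 TPM (adjusted p = 0.0501). Its partner Abcg8, which shares 82 exonic bases with it on the opposite strand, did not pass on either diet or averaged (-0.32 ± 0.15, adjusted p = 0.426).

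Stard4 libraries a to d held 101, 98.8, 84.9 and 81.2 CPM in wild-type progenitors under the control diet and 112, 100.5, 101 and 87.9 CPM under the high-fat diet. In deficient progenitors they held 70.0, 72.1, 61.7 and 74.7 CPM and 89.2, 89.5, 80.3 and 85.3 CPM. On the control diet the genotypes did not overlap, and on the high-fat diet they did. The averaged log2 fold change was -0.30 ± 0.07 (SE, n = 8 and 8, adjusted p = 0.0249 by edgeR). The call was lost without wild-type control library a or b, wild-type high-fat library a or deficient high-fat library c, with an adjusted p of up to 0.0681, and under limma (adjusted p = 0.0547).

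Sc5d libraries a to d held 136, 178, 154 and 158 CPM in wild-type progenitors under the control diet and 166, 146, 125 and 152 CPM under the high-fat diet. The deficient libraries held 117, 122, 105 and 112 CPM and 138, 106, 114 and 142 CPM. As for Stard4, the genotypes were apart on the control diet and overlapped on the high-fat diet. The averaged log2 fold change was -0.34 ± 0.08 (SE, n = 8 and 8, adjusted p = 0.0326 by edgeR). This call held in only 6 of 16 fits with 1 library left out, those without control library a of either genotype, deficient control library b, wild-type high-fat library c or deficient high-fat library a or d. The highest adjusted p among the other 10 was 0.0858. Under limma it was 0.0856.

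The remaining synthesis genes of progenitors are described by their counts. Of the 20 synthesis genes, 18 had negative fold changes with genotype averaged over diets, from -0.52 for Mvd to 0.04 for Ggps1, with a median of -0.31, and only Sc5d passed. The geometric mean level of the 20 genes was 95.4 CPM in wild-type progenitors under the control diet and 92.8 CPM under the high-fat diet. In deficient progenitors it was 79.5 and 76.4 CPM. The libraries overlapped, at 73.9 to 117 CPM for wild type and 69.8 to 94.7 CPM for deficient cells. On the control diet alone edgeR called none of the 32 genes, against 0.257% of all genes. The number with an unadjusted p under 0.05 was 8 of 32, against 5.80%. DESeq2 called 2 there, Stard4 and Sc5d, and limma none. Over all genes DESeq2 called 78 on the control diet, against 32 by edgeR. The summed level of the goblet cell markers in deficient progenitors was 9676 to 20806 CPM, against 12058 to 27183 CPM in wild type, with a median log2 fold change of -0.31 over the 10 genes and none called. Enterocyte markers had a median of -0.15 with 2 of 18 called higher, and Paneth cell markers one of -0.04 with none called. By diet the enterocyte median was 0.06 on the control diet, with 10 of 18 positive, and -0.45 on the high-fat diet, with 3 of 18 positive. None was called on either diet. Stem cell markers had a median of 0.18, with 7 of 8 positive and none called, and a median of 0.24 on the high-fat diet. The part of such cells in the sterol values was not tested.

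**Figure D4:**
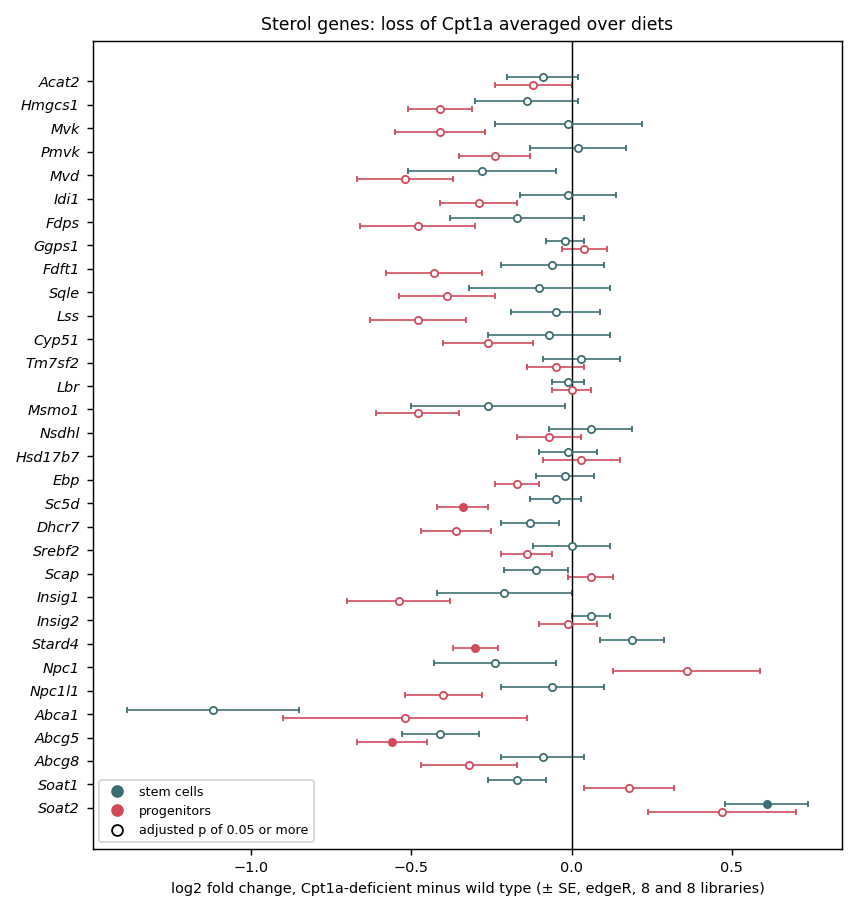
Log2 fold change of Cpt1a-deficient minus wild type averaged over diets (edgeR, 8 and 8 libraries), with its standard error, for each sterol gene in stem cells and in progenitors. Filled points passed: Sc5d, Stard4 and Abcg5 in progenitors and Soat2 in stem cells. In each population 26 of the 32 fold changes are negative, with medians of -0.06 in stem cells and -0.30 in progenitors.

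In stem cells the genotype changed 1 member, Soat2, which rose. That is 1 of 32, against 0.830% of 12409 genes called in either direction and 0.637% called higher. An unadjusted p under 0.05 was reached by 3 of 32, against 7.01% of all genes. Soat2 libraries a to d held 11.3, 11.3, 17.5 and 11.2 CPM in wild-type stem cells under the control diet and 11.7, 8.73, 17.2 and 13.6 CPM under the high-fat diet. In deficient stem cells they held 20.5, 18.8, 20.5 and 22.5 CPM and 19.5, 19.4, 18.4 and 17.0 CPM. The genotypes were apart on the control diet and overlapped by a narrow margin on the high-fat diet.

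The averaged log2 fold change of Soat2 was 0.61 ± 0.13 (SE, n = 8 and 8, adjusted p = 0.0279 by edgeR), with 8 of 8 deficient libraries above the wild-type mean. The call held in 5 of 16 fits with 1 library left out: wild-type library c of either diet, wild-type high-fat library d, deficient control library b or deficient high-fat library d. The other 11 fits gave an adjusted p of up to 0.0780, and limma on log2 TPM one of 0.0814. In progenitors Soat2 held 24.4 ± 11.0 CPM (SD, n = 8) in wild type and 32.3 ± 6.49 CPM in deficient cells, a log2 fold change of 0.47 ± 0.23 (adjusted p = 0.469 by edgeR). Of the 18 enterocyte markers, 1 was called higher with genotype in stem cells, with a list median of -0.34, and its part in the Soat2 value was not tested.

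Abca1 had the largest fold change with genotype in stem cells and did not pass. Its libraries a to d held 6.39, 9.19, 11.1 and 13.1 CPM in wild-type stem cells under the control diet and 5.29, 6.08, 8.17 and 3.17 CPM under the high-fat diet. In deficient stem cells they held 2.13, 3.48, 7.17 and 4.07 CPM and 2.57, 4.84, 2.32 and 1.43 CPM. All 8 deficient libraries lay below the wild-type mean of 7.80 CPM, and the ranges overlapped. The averaged log2 fold change was -1.12 ± 0.27 (adjusted p = 0.0717 by edgeR). It passed with DESeq2 (adjusted p = 0.0137), without the filter on low counts (0.0304), with the run of column numbers as a block (0.0276), and without deficient control library c (0.0218), deficient high-fat library b (0.0240) or wild-type high-fat library d (0.0318).

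On the separate diets edgeR called no member in stem cells. On the control diet 0.242% of all genes were called, and 2 of 32 members had an unadjusted p under 0.05, against 4.73% of all genes. On the high-fat diet 0.443% of all genes were called and 3 of 32 members had an unadjusted p under 0.05, against 6.38%. DESeq2 and limma called no member in either. The genes behind these counts were Abca1 and Soat2 on both diets and Abcg5 on the high-fat diet. Abcg5 held 52.8 ± 13.9 CPM (SD, n = 4) in wild type and 37.3 ± 5.01 CPM in deficient stem cells there, a log2 fold change of -0.50 ± 0.17 (adjusted p = 0.452 by edgeR). It passed without wild-type library d (-0.65, adjusted p = 0.0357), the library that held 34.5 CPM. Enterocyte markers had a median of -0.58 with genotype in stem cells on the high-fat diet, with 7 of 18 positive and none called. Their part in the Abcg5 value was not tested. The 20 synthesis genes had a geometric mean of 51.0 and 53.8 CPM in wild-type stem cells on the control and high-fat diet and of 48.5 and 53.1 CPM in deficient ones.

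**Figure D5:**
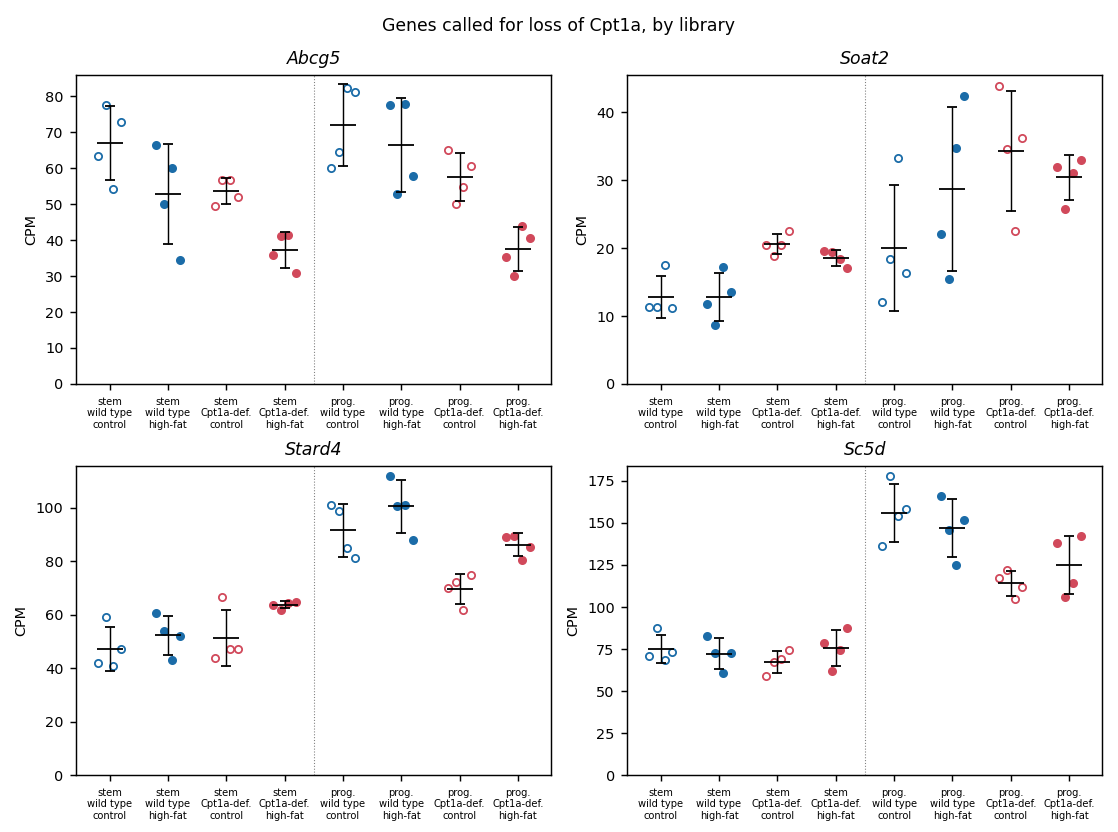
CPM of Abcg5, Soat2, Stard4 and Sc5d in every library of the 8 groups (points, open for the control diet and filled for the high-fat diet, blue for wild type and red for Cpt1a-deficient), with the group mean and SD as bars. Abcg5 is lowest in deficient progenitors on the high-fat diet, at 30.1 to 43.8 CPM, and in deficient stem cells on the same diet, at 30.9 to 41.4 CPM.

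Genotype effects were then compared between the populations in the joint model. The fold change in stem cells minus that in progenitors was positive for 26 of the 32 genes, with a median of 0.22 against 0.01 for all genes, and none passed. edgeR called 0 of 13088 genes in this test (0%), DESeq2 1 gene that is no member and limma 0. At an unadjusted p under 0.05 the count was 2 of 32, against 3% of all genes. These were Stard4 (0.51 ± 0.12, adjusted p = 1 by edgeR) and Sc5d (0.30 ± 0.12, adjusted p = 1). With stem cell and progenitor columns of consecutive numbers as pairs, 14 of 32 had an unadjusted p under 0.05, against 6.01% of all genes, and 10 of the 14 were synthesis genes with positive values. No member passed in that fit either, where the lowest adjusted p was 0.113, for Stard4 (0.50 ± 0.10, edgeR), and 0.0382% of all genes were called. Stem cell markers had a median of -0.19 in the unpaired comparison, with 0 of 8 positive, and goblet cell markers one of 0.38, with 8 of 10 positive. Their part in the sterol values was not tested. A difference between the populations in the effect of Cpt1a loss was thus not called for any sterol gene.

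The high-fat diet was compared with its control within each population and genotype, and edgeR called none of the 32 genes in any of these 6 comparisons. In stem cells the shares of all genes called were 0.250% in wild type, 0.0645% in deficient cells and 0.959% averaged. In progenitors they were 0.0883%, 0.313% and 0.891%. At an unadjusted p under 0.05 the stem cell counts were 2, 2 and 5 of 32, against 11.7%, 4.71% and 11.9% of all genes. The progenitor counts were 0, 4 and 5 of 32, against 7.06%, 9.77% and 11.3%. limma called none in any of the 6, and DESeq2 called 1 in stem cells averaged, 2 in deficient progenitors and 1 in progenitors averaged. Over all genes DESeq2 called 243, 109 and 245 in these comparisons, against 119, 39 and 111 by edgeR. Markers also moved with diet, and their part in the sterol values was not tested. In stem cells averaged over genotypes, enterocyte markers had a median log2 fold change of 0.94 with 4 of 18 called higher, goblet cell markers 0.79 with 3 of 10 called higher, and Paneth cell markers 1.07 with none of 8 called. In progenitors these medians were 0.37 with 2 called higher, 0.14 with none and 0.88 with none.

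The genes behind the DESeq2 calls were Abcg5 and Npc1l1. For Abcg5 the log2 fold change with diet was -0.43 ± 0.12 in stem cells averaged over genotypes (adjusted p = 0.107 by edgeR, 0.0357 by DESeq2). In deficient progenitors it was -0.63 ± 0.15 (adjusted p = 0.0932 by edgeR, 0.0205 by DESeq2), where the 2 diets did not overlap. With the run of column numbers as a block, edgeR also called Abcg5 in deficient progenitors (adjusted p = 0.0308) and in progenitors averaged (0.0398). In each population the group with the lowest mean was deficient cells on the high-fat diet, at 37.3 ± 5.01 CPM (SD, n = 4) in stem cells and 37.5 ± 6.02 CPM in progenitors.

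Npc1l1 libraries a to d held 105, 84.8, 62.5 and 91.0 CPM in deficient progenitors under the control diet and 53.7, 38.4, 52.0 and 63.8 CPM under the high-fat diet, which overlapped in 1 library of each. The log2 fold change was -0.74 ± 0.17 (SE, n = 4 and 4, adjusted p = 0.0817 by edgeR, 0.00695 by DESeq2). In wild-type progenitors the libraries held 89.9, 97.4, 101 and 85.4 CPM under the control diet and 90.3, 63.3, 98.3 and 83.9 CPM under the high-fat diet, a difference of -0.16 ± 0.17. Without deficient control library c, edgeR called the diet effect of Npc1l1 in deficient progenitors (-0.86, adjusted p = 0.0198) and averaged (-0.51, adjusted p = 0.0267). Against wild type on the high-fat diet it stood at -0.69 ± 0.17 (adjusted p = 0.0810 by edgeR, 0.0116 by DESeq2, and 0.0348 by edgeR without wild-type library b).

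Whether the diet effect depended on genotype was tested by the interaction in each population, and no member passed. edgeR called 0% of all genes in stem cells and 0% in progenitors, and DESeq2 and limma called 0 as well. At an unadjusted p under 0.05 the counts were 0 of 32 in stem cells, against 3.58% of all genes, and 2 of 32 in progenitors, against 4.50%. The 2 were Npc1l1 (-0.58 ± 0.23, adjusted p = 0.969 by edgeR) and Abcg5 (-0.52 ± 0.21, adjusted p = 0.969). In the progenitor interaction enterocyte markers had a median of -0.44, with 2 of 18 positive and none called. Their part in the values of Npc1l1 and Abcg5 was not tested. The diet effect in stem cells minus that in progenitors called 0% of all genes by edgeR, DESeq2 and limma. At an unadjusted p under 0.05 it gave 1 of 32 members, Lbr, against 5.24%. With columns of consecutive numbers as pairs it gave 9 of 32, against 10.1%, and again no member passed, with 0.0382% of all genes called. The 20 synthesis genes had a median of 0.18 in the unpaired comparison, 18 of them positive. In the same comparison cell cycle genes had a median of 0.22 with 12 of 12 positive, goblet cell markers 0.61 with 10 of 10 positive and enterocyte markers 0.65 with 15 of 18 positive, none of them called. Their part in the sterol values was not tested.

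Synthesis genes also varied together between libraries of the same group. The mean log2 level of the 20 genes had an SD of 0.26 between stem cell libraries of a group, against a median SD of 0.32 for single genes, and of 0.20 against 0.26 in progenitors. For 12 cell cycle genes these pairs were 0.16 and 0.24 in stem cells and 0.16 and 0.23 in progenitors. In wild-type progenitors on the high-fat diet, 20 of 20 synthesis genes in library a lay above the group mean. In wild-type stem cells on that diet, 1 of 20 did in library c. Library c of each group, from the third run of column numbers, had a mean over the 20 synthesis genes below that of its group in 8 of 8 groups, with 1 to 5 of the 20 genes above their group mean. The mean log2 deviations were -0.45 to -0.19 in stem cells and -0.33 to -0.05 in progenitors. What the runs stand for is not given in the sources used here. In the other 3 runs the libraries lay on both sides of their group means.

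A list of 46 further genes of sterol and isoprenoid handling, of which 43 were tested, was compared between the populations. In stem cells 7 were higher, 19 were lower and 17 did not pass, with a median log2 fold change of -0.15, and the 26 called of 43 are close to the 63.5% called among all genes. The call with the smallest adjusted p was Gramd1a, which moves cholesterol from the plasma membrane to the endoplasmic reticulum, at 45.8 ± 17.6 CPM (SD, n = 16) in stem cells and 7.80 ± 2.56 CPM in progenitors (2.52 ± 0.16). Vldlr, a lipoprotein receptor (-1.84 ± 0.18), Osbpl2, a sterol-binding lipid transfer protein (-0.67 ± 0.06), and Erg28, a scaffold of the demethylation enzymes (-0.56 ± 0.06), were lower. With genotype averaged over diets, 1 of the 43 was called in progenitors and 0 in stem cells, against 1.21% and 0.830% of all genes. Scarb1, a receptor for high-density lipoprotein, rose in deficient progenitors from 21.5 ± 3.62 to 33.1 ± 7.01 CPM (SD, n = 8, adjusted p = 0.00955 by edgeR). With diet averaged over genotypes, 1 of the 43 was called in progenitors and 0 in stem cells, against 0.891% and 0.959% of all genes. It was Lipa, the lysosomal lipase that frees cholesterol from its esters. Lipa was low and rose in progenitors from 3.63 ± 0.581 to 6.41 ± 1.56 CPM (adjusted p = 0.0368 by edgeR).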

How the data were processed

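Gene expression was measured by polyA RNA sequencing of 32 libraries in 8 groups. Per the submitters' processing notes the tools named are SAMtools 1.3, RSEM 1.3.0 and STAR 2.5.3a, without role or order, and the build is mm10. The annotation and the strand setting are not given in the sources used here. The authors deposited expected counts per gene, already rounded to whole numbers, and a second table of log2 values, the log2 of TPM plus 1. Unnamed genes took 0.0677% of all counts. Symbols came from a gene name table, exon overlaps from GENCODE M21 and promoter windows from RefSeq, both on GRCm38.

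Counts were tested in edgeR 4.0.16 (R 4.3.3) by robust quasi-likelihood fits after TMM scaling and the filterByExpr filter (minimum count 10), with Benjamini-Hochberg adjustment over all genes tested and a threshold of 0.05. Each population was fitted alone (16 libraries, 4 groups), and all 32 libraries together for comparisons between populations, which may share mice. Standard errors were taken as the size of the log2 fold change divided by the root of the F value. Averaged effects set 8 libraries against 8. The code was tested on simulated data.

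Alternatives were DESeq2 1.42.0, limma 3.58.1 on log2 TPM, RLE scaling, no filter, only the groups compared, the Xist level as a covariate, each library left out and, chosen after seeing the data, 2 blocks: the run of column numbers, and pairs of stem cell and progenitor columns with consecutive numbers. Over all genes tested, deviations from group means correlated between such pairs at 0.10 to 0.30 (16 pairs), and between other stem cell and progenitor libraries of a condition at -0.22 to 0.10. The pairing is a hint from the data, as no label gives it. The labelled sex and replicate number could not be read from the columns, so no fit used these labels. The Xist covariate served in place of the sex label. Deposited depth limits low genes most: Abca1 rested on as few as 2 counts in a library.

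The members and lists were chosen with earlier results of these data known. Values in every library are given for members called outside the comparison of populations. Low, median and high libraries are given for the 4 called members with the largest difference in each direction between populations, or as many as there were. Of the further pathway genes, up to 4 called with the smallest adjusted p are named. Abca1 with genotype, Npc1l1 with diet and others named outside these rules were chosen after their values were seen.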

Additional observations from a re-analysis of the deposited data

Results flagged for a closer look

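In 14 of 256 groups of 4 libraries (32 genes in 8 groups), 1 library stood far from the other 3 by Dixon's criterion, the gap to its nearest neighbour relative to the whole range. Chance alone flags about 1 in 20 groups. In wild-type progenitors on the control diet, library b was the highest for Acat2 (242 CPM, the others 168 to 177), Mvd (45.1 CPM, the others 29.1 to 30.7) and Sqle (284 CPM, the others 172 to 183), and library d the lowest for Soat1 (143 CPM, the others 189.7 to 197). In deficient progenitors on the high-fat diet, library d was the highest for Mvd (31.3 CPM, the others 19.6 to 21.2) and Cyp51 (196 CPM, the others 135 to 139). In deficient progenitors on the control diet, library c was the highest for Abca1 (3.83 CPM, the others 0.687 to 1.06).

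In deficient stem cells on the control diet, library b was the highest for Srebf2 (96.1 CPM, the others 57.9 to 63.2) and Stard4 (66.7 CPM, the others 43.8 to 47.2). In deficient stem cells on the high-fat diet, library d was the highest for Lbr (405 CPM, the others 389 to 391) and library b for Npc1 (8.51 CPM, the others 5.07 to 5.32). In wild-type stem cells, library c on the control diet was the highest for Soat2 (17.5 CPM, the others 11.2 to 11.3), library d on that diet for Insig2 (48.7 CPM, the others 46.5 to 46.7) and library b on the high-fat diet for Scap (75.2 CPM, the others 55.5 to 58.6).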

How the results depend on the processing

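The labelled replicate number could not serve as a replicate block, as the columns do not carry it. With consecutive stem cell and progenitor columns as a replicate block, chosen after seeing the data, 26 members were called between populations (median -0.66), and 0 for either difference between the populations in an effect, while the counts over all genes went from 0 to 5 in both. Of the calls of members between populations, 2 reversed, both under limma on log2 TPM without passing: Acat2 (0.04) and Insig2 (0.01). The median of the 32 genes moved to -0.39 there, and that of all genes to 0.27. The number of members called changed under these settings. DESeq2 called 1 for diet in stem cells averaged, 2 for genotype in stem cells averaged, 2 for diet in deficient progenitors and 1 averaged, and 2, 2 and 6 for genotype in progenitors on the control diet, on the high-fat diet and averaged. limma called 0 for genotype in stem cells averaged and 0 in progenitors on the high-fat diet. Without the filter the counts were 2 for genotype in stem cells averaged and 1 in progenitors on the control diet. With the run of column numbers as a replicate block, also chosen after seeing the data, they were 2 for genotype in stem cells averaged, and 1 for diet in deficient progenitors and 1 averaged. With 1 library left out, the counts ran from 0 to 1 for genotype in stem cells on the high-fat diet, 0 to 3 averaged, 0 to 1 for diet in deficient progenitors, 0 to 1 averaged, and 0 to 2 and 1 to 6 for genotype in progenitors on the high-fat diet and averaged. The other 334 of 369 recomputed counts of members stayed within 1.5 times the reported one.

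Counts over all genes also moved. Under the alternatives other than left-out libraries, for diet in stem cells, wild-type, deficient and averaged, 31, 8 and 119 became 2 to 179, 8 to 44 and 91 to 243. For genotype in stem cells, on the control diet, on the high-fat diet and averaged, 30, 55 and 103 became 24 to 58, 25 to 100 and 84 to 164. For diet in progenitors 11, 39 and 111 became 0 to 44, 35 to 109 and 93 to 245, and for genotype 32, 88 and 151 became 25 to 78, 63 to 184 and 122 to 263. With 1 library left out, the counts for diet in stem cells were 5 to 25, 0 to 14 and 87 to 134, and for genotype 14 to 33, 30 to 81 and 77 to 123. In progenitors they were 0 to 16, 16 to 84 and 61 to 142 for diet, and 17 to 49, 35 to 90 and 106 to 162 for genotype. The cause of these moves was not tested. RLE scaling and the Xist covariate changed no count of members by over 1.5 times.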

Other observations

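Fatty acid synthesis shares its acetyl-CoA and some of its regulators with sterol synthesis. Of 15 genes of that pathway, 12 were tested. With genotype averaged over diets, 1 was called higher and 1 lower in each population (edgeR), against 0.830% of all genes called in stem cells and 1.21% in progenitors. On the control diet alone none of the 12 was called in either population, against 0.242% and 0.257% of all genes. On the high-fat diet 1 was called higher and 1 lower in each, those named next, against 0.443% and 0.706%. Me1, the malic enzyme that supplies NADPH, rose in deficient progenitors from 15.3 ± 12.9 to 69.6 ± 57.0 CPM (SD, n = 8, adjusted p = 0.000730 by edgeR) and in deficient stem cells from 4.22 ± 2.01 to 15.1 ± 11.5 CPM (adjusted p = 0.00145 by edgeR). Scd2, a desaturase that makes monounsaturated fatty acids, fell in deficient progenitors from 120.1 ± 68.8 to 28.4 ± 21.7 CPM (adjusted p = 0.000632 by edgeR) and in deficient stem cells from 73.9 ± 40.6 to 20.8 ± 13.4 CPM (adjusted p = 0.00483 by edgeR). These SDs pool both diets, and both genes were also called for diet averaged over genotypes. Me1 rose on the high-fat diet in progenitors (log2 fold change 2.52, adjusted p = 0.000207 by edgeR) and stem cells (1.67, adjusted p = 0.00120). Scd2 fell in progenitors (-1.94, adjusted p = 0.00580 by edgeR). No other gene of the 12 was called there, against 0.891% of all genes in progenitors and 0.959% in stem cells. Averaged over diets, the log2 fold changes of Me1 (1.48 and 2.07) and Scd2 (-2.07 and -2.36) in stem cells and progenitors were larger in size than those of the 32 sterol genes, of which the largest was -1.12 for Abca1 in stem cells. The medians of the 12 genes were -0.08 in stem cells and -0.12 in progenitors, against -0.06 and -0.30 for the sterol genes. Between the populations, 5 of the 12 were higher in stem cells and 3 lower, against 63.5% of all genes called in either direction. Among them were Acss2 (0.85 ± 0.06) and Elovl6 (-1.60 ± 0.10). These genes were named after their values were seen.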
